A study of Homo sapiens with 6 samples.

Results

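Kinesins are motors that use ATP to move along microtubules or to take microtubule ends apart. The kinesin genes examined here are all gene symbols of the count table that begin with KIF or KIFC followed by a number and, in some, a letter from A to C. They numbered 42 of 56303 gene symbols and lay on 16 chromosomes. The rule used names alone, so CENPE, a kinetochore kinesin with another kind of symbol, was not a member. The counts came from SW480 cells, an established human colon adenocarcinoma line, grown in medium with fetal bovine serum. All cells carried a lentiviral short hairpin, either a nonsilencing control (shCtrl, 3 libraries, genotype label WT) or a hairpin against the splicing factor RBM39 (shRBM39, 3 libraries). According to the study's methods, both were stable clonal lines selected with puromycin, so the hairpin and the clone cannot be told apart. The comparison addresses which kinesin RNAs and kinesin splicing events change when RBM39 is depleted.

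Kinesins fall into groups with separate jobs. During cell division, one set pushes the spindle poles apart, moves chromosome arms, trims microtubule ends at kinetochores and builds the central spindle needed for cytokinesis. Their transcripts are made mostly late in the cell cycle. Outside division, other kinesins carry vesicles, organelles, RNA and ciliary cargo. Of the 42 members, 14 were listed as cell division kinesins and 28 as interphase kinesins, with KIF2A, which also acts at spindle poles, in the second class.

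The libraries held 18042924 to 20428901 counts. RBM39 itself fell from 441 ± 6.53 to 278 ± 13.3 CPM (counts scaled to library size, mean ± SD of 3 libraries), or -0.67 as a log2 fold change. The epithelial markers EPCAM, KRT8, KRT18, KRT19, VIL1 and CDH1 were expressed in both groups, with means of at least 68.3 CPM, while CDX2, the intestinal transcription factor, fell from 21.7 ± 0.616 to 4.95 ± 0.529 CPM. Of 6 markers of other cell types, PTPRC had 0 counts in every library, CD3E and COL3A1 had at most 3, and CD68 did not pass the test (15.7 ± 0.560 and 16.7 ± 0.674 CPM). COL1A1, a fibroblast collagen, rose from 5.57 ± 0.104 to 9.80 ± 1.29 CPM (log2 fold change 0.81, adjusted p = 8.04e-08) and PECAM1, an endothelial marker, from 3.36 ± 0.586 to 5.82 ± 0.463 CPM (0.79, adjusted p = 7.49e-06). The part of these in the kinesin values was not tested. The summed level of the 6 ranged from 24.4 to 25.0 CPM in shCtrl and from 29.7 to 34.3 CPM in shRBM39. The CPM values carry edgeR's TMM scaling, which sets libraries to a common level, and p-values come from edgeR's quasi-likelihood test, adjusted over 18243 genes. The p-values set the difference between groups against the spread between libraries within a group, which the study's methods describe as 3 replicate experiments per group. They do not cover variation between clones or hairpins, which cannot be told apart here.

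Of the 42 kinesin genes, 38 had enough counts to be tested and 30 of these changed at an adjusted p under 0.05, where 59.1% of all tested genes did. Expression rose in shRBM39 for 19 members, against 29.2% of all tested genes, and fell for 11, against 29.9%. The values of the groups did not overlap for 31 of the 38, against 63.3% of all tested genes. The median log2 fold change was 0.13 over the members and -0.01 over all tested genes. Scaling by library totals alone, which moved the median of all genes to -0.14, gave 16 higher and 14 lower members. A change of at least 0.5 on the log2 scale was found for 18 members, 13 higher and 5 lower. This was 47.4% of the tested members, where the same rule called 25.3% of all tested genes.

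**Figure D1:**
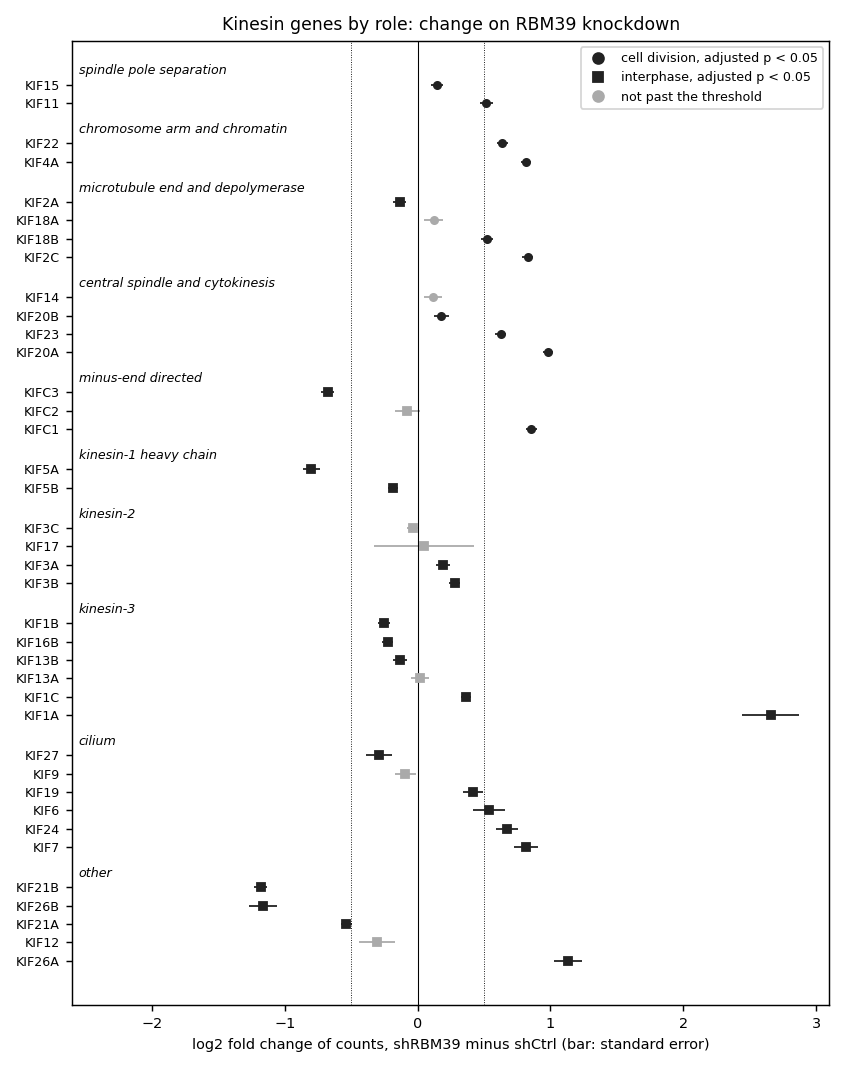
Log2 fold change of the 38 tested kinesin genes (x axis, shRBM39 minus shCtrl, bars are standard errors), grouped by role on the y axis, with circles for cell division and squares for interphase kinesins and grey for genes that did not pass the threshold. Black circles all lie to the right of 0, the squares lie on both sides, and dotted lines mark changes of 0.5.

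The classes differed in what they showed. Among the 12 tested cell division kinesins, 10 rose (83.3%, against 29.2% of all tested genes) and 0 fell (against 29.9%) by edgeR's test. There were 0 lower at an unadjusted p under 0.05 and 0 lower by DESeq2 and by limma. This depends on how the class was drawn, and roles were assigned with earlier results of these data known. KIF2A, which also acts at spindle poles but was counted as interphase, fell by 0.14 (adjusted p = 0.0199, edgeR). CENPE, a kinetochore kinesin outside the naming rule, fell by 0.28 (adjusted p = 0.00210, edgeR). With library totals alone and with limma on both RPKM scales, 8 of the class were called. The median log2 fold change of the class was 0.57. Among the 26 tested interphase kinesins, 9 rose (34.6%, against 29.2%) and 11 fell (42.3%, against 29.9%), and the median was -0.08. RPKM values, which correct reads for gene length and are scaled by library totals, allow a sum over genes. The summed level of the cell division class was 199.7, 196 and 201 RPKM in the shCtrl libraries and 298, 296 and 293 RPKM in the shRBM39 libraries, a ratio of the means of 1.49. The interphase class went from 195 ± 2.82 to 178 ± 1.74 RPKM, a ratio of 0.911. Cell division kinesins thus made up 50.5% ± 0.642 of all kinesin RPKM in shCtrl and 62.5% ± 0.112 in shRBM39 (SD, n = 3), a share that library scaling cannot alter. Summed as TMM-scaled CPM, not corrected for length, the ratios were 1.58 for cell division and 0.977 for interphase kinesins. The fall of the interphase sum was thus smaller on that scale. With library totals alone, on which RPKM also rests, the median log2 fold change over all tested genes was -0.14. A fall on the RPKM scale was thus not particular to the interphase class.

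**Figure D2:**
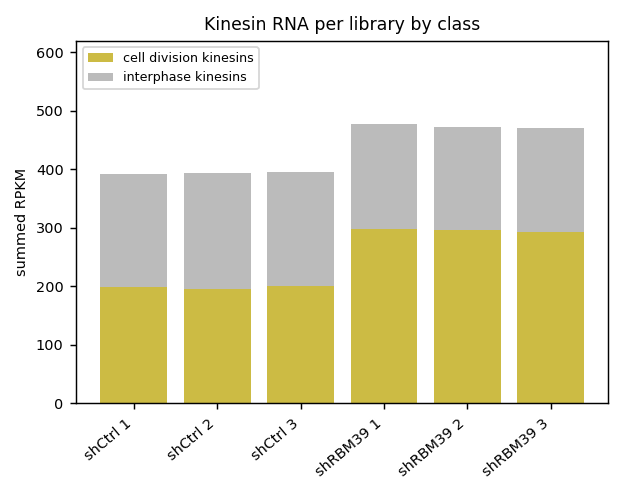
Summed RPKM of the kinesin genes in each of the 6 libraries (bars from 0, cell division kinesins below, interphase kinesins above). The lower segment ends between 196 and 201 in shCtrl and between 293 and 298 in shRBM39, while the upper segment is slightly shorter in shRBM39.

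A list of 12 general proliferation markers moved in the same direction as the cell division class. All 12 rose, where 29.2% of all tested genes did. The summed level of the 12 ranged from 2299 to 2364 CPM in shCtrl and from 3900.1 to 4049 CPM in shRBM39. The largest changes in the list were those of MCM5 (log2 fold change 1.34) and PCNA (1.25), both of DNA replication, and CCNB1 (1.07), the mitotic cyclin. The part of this shift in the kinesin values was not tested. In these bulk samples a change in the share of dividing cells and a change in RNA per cell cannot be told apart.

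In shCtrl cells the highest kinesin levels per length belonged to 2 interphase motors, KIF1C with 41.9 ± 1.44 RPKM and KIF5B with 41.5 ± 0.624 RPKM, whose ranges overlapped. KIF4A (35.1 ± 0.836 RPKM) and KIFC1 (34.1 ± 1.01 RPKM) followed and overlapped each other, and then came KIF2C (29.2 ± 1.03 RPKM). In shRBM39 cells KIF4A and KIFC1 both averaged 56.7 RPKM, above KIF1C (49.4 ± 1.084 RPKM), KIF2C (47.6 ± 0.295 RPKM) and KIF5B (33.5 ± 1.53 RPKM). At the low end, 4 members were not tested. KIF2B, a mitotic microtubule depolymerase, had 0 counts in all libraries, KIF25 had 2 counts in 1 library, KIF5C at most 4 and KIF4B at most 9. KIF4B is a near-identical intronless copy of KIF4A, so reads of the pair could be split, and KIF4A held between 99.7% and 99.9% of their joint RPKM in every library.

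Spindle pole separation relies on KIF11, which slides antiparallel microtubules apart and is the target of mitotic inhibitors, and on KIF15, which can stand in for it. KIF11 stood at 68.7, 73.2 and 73.9 CPM in shCtrl and rose to 100.2, 98.2 and 110.4 CPM in shRBM39. The groups did not overlap, and the log2 fold change was 0.52 ± 0.05 (SE, adjusted p = 7.64e-12, edgeR). KIF15 rose by less, from 70.5 ± 0.548 to 78.0 ± 5.58 CPM (log2 fold change 0.15, adjusted p = 0.00702). Its call was lost without shRBM39 replicate 3 (0.09, adjusted p = 0.0920), with library totals alone (0.02) and with limma on both RPKM scales (adjusted p = 0.829 on each).

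Chromosome arms are handled by KIF4A, which binds chromatin and limits the length of the central spindle, and by KIF22, which pushes arms away from the poles. KIF4A was measured at 151, 151 and 156 CPM in shCtrl and at 273, 274 and 258 CPM in shRBM39. The gap between the groups was wide, at a log2 fold change of 0.81 ± 0.04 (adjusted p = 4.44e-19). KIF22 was close to 79 CPM in every shCtrl library (79.7, 78.6 and 79.98) and reached 122, 128 and 121 CPM in shRBM39, a log2 fold change of 0.64 ± 0.04 (adjusted p = 1.80e-15). Of the exon bases of KIF22, 13.0% are shared with AC009133.21 on the other strand. The library kit was stranded, but the strand setting of the counting is not given in the sources used here.

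Among the motors that act at microtubule ends, KIF2C, a depolymerase that corrects faulty kinetochore attachments, changed most. It had 107, 98.1 and 101 CPM in shCtrl and 179.9, 182 and 182 CPM in shRBM39 (log2 fold change 0.83 ± 0.04, adjusted p = 7.25e-19). KIF18B, which works on astral microtubules, was at 42.0, 40.8 and 40.6 CPM in shCtrl and 61.0, 58.9 and 57.5 CPM in shRBM39 (0.52 ± 0.05, adjusted p = 8.91e-12). No shRBM39 library of either gene reached down into the shCtrl range. KIF18A, which damps chromosome oscillations, did not pass the test at 17.1 ± 1.55 and 18.6 ± 0.792 CPM (0.12, adjusted p = 0.163), and its difference was -0.0036 with library totals alone. KIF2A, a relative of KIF2C, fell slightly, by 0.14 on the log2 scale (adjusted p = 0.0199). That call was lost with DESeq2 (adjusted p = 0.145), without a filter on low counts (0.0566) and without shCtrl replicate 2 (0.0803), shCtrl replicate 3 (0.0832), shRBM39 replicate 1 (0.103) or shRBM39 replicate 3 (0.0532). KIF2A shares 8.97% of its exon bases with IPO11 on the same strand.

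The central spindle and cytokinesis set held the largest change of the class. KIF20A, which brings the chromosomal passenger complex to the central spindle, stood at 65.4, 65.4 and 65.5 CPM in shCtrl and at 129, 130.4 and 128 CPM in shRBM39. Expression was close to doubled, at 1.97-fold, with a log2 fold change of 0.98 ± 0.04 (adjusted p = 1.28e-20) and little spread within either group. KIF23, the motor subunit of centralspindlin, went from 54.5, 55.6 and 57.6 CPM to 87.2, 82.9 and 88.2 CPM (0.62 ± 0.04, adjusted p = 2.66e-14). KIF20B, which takes part in abscission, rose by only 0.18 (adjusted p = 0.00828). This call was lost without shCtrl replicate 2 (0.08, adjusted p = 0.194), without shRBM39 replicate 1 (0.13, adjusted p = 0.0759), with library totals alone (0.05) and with limma on the log2(RPKM + 1) and log2(RPKM + 0.1) scales (adjusted p = 0.705 and 0.692). KIF14, which recruits citron kinase to the midbody, did not pass the test (0.12, adjusted p = 0.139), and its ranges overlapped. It did pass without shCtrl replicate 1 (0.20, adjusted p = 0.0273) and with the correction for GC content and length (0.17, adjusted p = 0.0269).

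The minus-end directed kinesins, which walk the other way along the microtubule, went in different directions. KIFC1, which bundles spindle microtubules and clusters extra centrosomes, rose from 114, 107 and 107 CPM to 202, 202 and 192 CPM (log2 fold change 0.86 ± 0.04, adjusted p = 3.39e-19). KIFC3, a motor of epithelial junctions and the Golgi apparatus, fell from 55.2, 55.6 and 55.0 CPM to 35.9, 34.2 and 33.7 CPM (-0.68 ± 0.05, adjusted p = 3.32e-14). In neither gene did the groups overlap. KIFC2 did not pass the test (-0.08, adjusted p = 0.501). KIFC1 shares 12.7% of its exon bases with RPL12P1 and KIFC2 17.8% with FOXH1, each on the opposite strand.

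**Figure D3:**
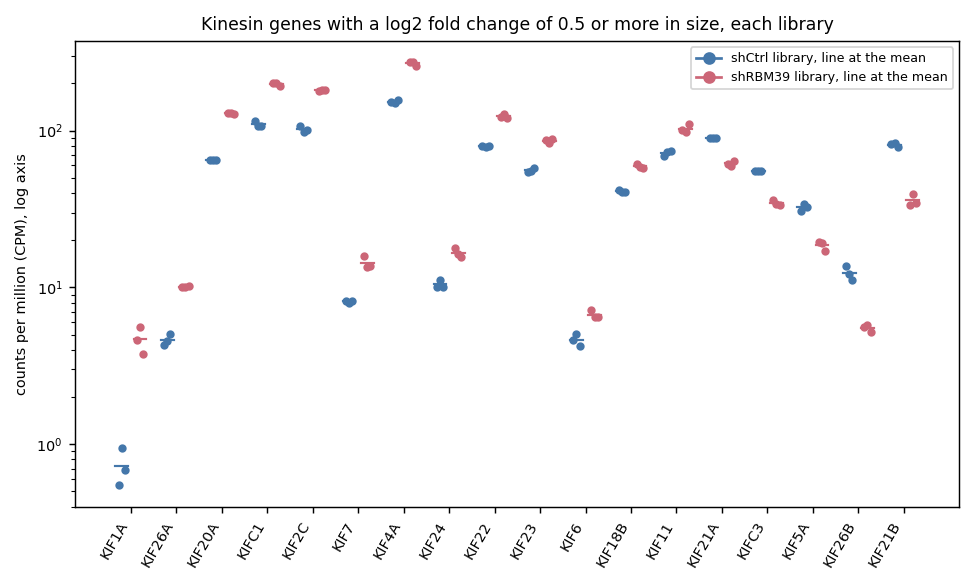
CPM of the 18 kinesin genes with a log2 fold change of 0.5 or more in size (y axis, log scale), with 1 point per library, blue for shCtrl and red for shRBM39, and lines at the group means. Genes run from the largest rise, KIF1A, to the largest fall, KIF21B, and in none of the 18 do the points of the groups overlap.

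Genes of the late cell cycle often carry 2 short motifs near their start, the cell cycle genes homology region (CHR), where the MuvB complexes bind, and the CCAAT box of the factor NF-Y. RefSeq promoter windows on GRCh38.p14, each running from 250 bases before to 50 bases after a transcript start, were matched for 34 of the 42 members by symbol. They were searched on both strands for the CHR as TTTGAA or TTCGAA and for CCAAT. None of these motif matches overlapped a match of the other motif. The CHR was found in 11 of 14 cell division kinesins and in 2 of 20 interphase kinesins, KIF24 and KIF5B. By window this was 12 of 15 (80%) against 2 of 28 (7.14%), and 16.4% of all 35116 windows held it. The 12 include 2 overlapping windows of KIF22 that hold the same CHR site. CCAAT was found in 11 of 14 and in 7 of 20, and in 34.6% of all windows. The members without a matched window were KIF13B, KIF19, KIF21B, KIF26B, KIF27, KIF5A, KIFC2 and KIFC3.

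Cell division kinesins with both motifs included genes that passed the test and genes that did not. The 5 sequences that follow show this range, with 3 genes that rose and hold both motifs, then KIF14, which holds both and did not pass the test, and KIF2C, which rose and holds neither in its window. Each runs 5′ to 3′ on the strand of the gene, from 80 bases before to 10 bases after the RefSeq start, with CHR and CCAAT matches in capitals, which read TTCAAA and ATTGG where the match is on the opposite strand.
KIF4A, chrX:70290024-70290113, plus strand: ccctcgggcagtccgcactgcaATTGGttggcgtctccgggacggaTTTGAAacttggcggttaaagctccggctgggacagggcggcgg
KIF11, chr10:92593050-92593139, plus strand: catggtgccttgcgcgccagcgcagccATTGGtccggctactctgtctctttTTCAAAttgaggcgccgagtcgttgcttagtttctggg
KIF18B, chr17:44947764-44947853, minus strand: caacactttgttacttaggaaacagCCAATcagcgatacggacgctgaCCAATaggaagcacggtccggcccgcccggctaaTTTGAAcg
KIF14, chr1:200620742-200620831, minus strand: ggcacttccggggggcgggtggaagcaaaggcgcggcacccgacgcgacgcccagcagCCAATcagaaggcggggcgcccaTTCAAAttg
KIF2C, chr1:44739757-44739846, plus strand: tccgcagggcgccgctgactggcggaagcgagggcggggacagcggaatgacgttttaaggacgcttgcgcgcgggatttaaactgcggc

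In KIF4A and KIF11 the CHR begins 34 and 28 bases before the start, with the CCAAT box further upstream. In KIF14 and KIF18B it begins at bases 2 and 3 of the transcript. KIF18A, the other member of the class that did not pass the test, also held both motifs. KIF2C, with a rise of 0.83, and KIF20A, with a rise of 0.98, held no CHR in their windows, though KIF20A held 2 CCAAT matches. A match is a run of letters and not evidence of binding.

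**Figure D4:**
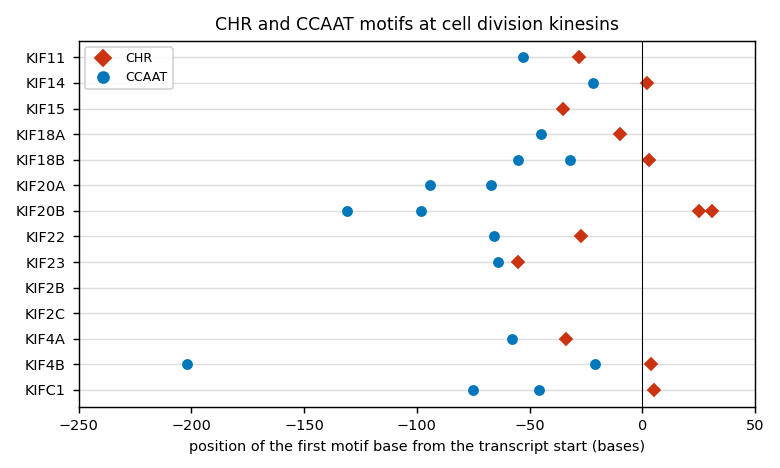
Position of the first base of each CHR match (red diamonds) and CCAAT match (blue circles) in the first promoter window of each of the 14 cell division kinesins, in bases from the transcript start (x axis). In these windows the CHR matches of 11 genes begin between 55 bases before and 31 bases after the start, and the CCAAT matches mostly lie upstream of them.

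Conventional kinesin, the main carrier of vesicles and mitochondria, is built on the heavy chains KIF5A, KIF5B and KIF5C. KIF5A, best known from neurons, fell from 30.8, 34.2 and 32.4 CPM in shCtrl to 19.6, 19.2 and 17.1 CPM in shRBM39 (log2 fold change -0.80 ± 0.06, adjusted p = 6.33e-13), with no overlap. KIF5B, the ubiquitous form, fell by 0.19 (adjusted p = 9.58e-05) from 234 ± 5.25 to 206 ± 8.97 CPM, and by 0.31 with library totals alone. KIF5B therefore supplied 88.5% ± 0.756 of the heavy chain RPKM in shCtrl and 92.1% ± 0.728 in shRBM39.

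The heterotrimeric kinesin that builds cilia pairs KIF3A with KIF3B or KIF3C. KIF3B rose by 0.28 (adjusted p = 2.69e-07) from 86.4 ± 1.01 to 105 ± 0.758 CPM, and by 0.15 with library totals alone. KIF3A rose by 0.19 (adjusted p = 0.00155), a call lost with library totals alone (0.07, adjusted p = 0.262) and with limma on both RPKM scales (adjusted p = 0.436 on each). KIF3C, at 86.5 ± 1.31 and 84.4 ± 2.06 CPM, did not pass the test (-0.04, adjusted p = 0.466), and it was lower with library totals alone (-0.16, adjusted p = 0.00119) and with limma on the log2(RPKM + 1) and log2(RPKM + 0.1) scales (adjusted p = 0.0117 and 0.0123). KIF17, a homodimeric relative, had 6 to 14 counts a library and gave no call.

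KIF1A, a carrier of synaptic vesicle precursors that is best known from neurons, had the largest change of all members. It was near the floor in shCtrl, with 11, 20 and 14 counts, or 0.546, 0.942 and 0.689 CPM. In shRBM39 it had 91, 96 and 73 counts, or 4.64, 5.58 and 3.77 CPM. The 6.31-fold rise (log2 fold change 2.66 ± 0.22, adjusted p = 8.50e-13) left it at 0.361 ± 0.0693 RPKM, under the level of most kinesins.

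The other transport motors of its subfamily moved less. KIF1C, which carries integrin vesicles and RNA, rose by 0.36 (adjusted p = 2.25e-10) from 345 ± 9.95 to 443 ± 10.1 CPM, and by 0.24 with library totals alone. KIF1B, a carrier of mitochondria and vesicles, fell by 0.25 (adjusted p = 4.70e-06), and by 0.12 after a correction for GC content and gene length. KIF16B, which moves early endosomes, fell by 0.23 (adjusted p = 3.58e-05), and by 0.35 with library totals alone. KIF13B fell by 0.13 (adjusted p = 0.0232) with overlapping groups. This call was lost with DESeq2 (adjusted p = 0.147), without a filter on low counts (0.0516), with the correction for GC content and length (-0.0013, adjusted p = 0.985), and without shCtrl replicate 2 (0.0539), shCtrl replicate 3 (0.218), shRBM39 replicate 1 (0.0726) or shRBM39 replicate 3 (0.0605). KIF13A did not pass the test (0.02, adjusted p = 0.841).

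Of the 6 kinesins of the cilium, all at low levels, 4 were higher in shRBM39 (66.7%, against 29.2% of all tested genes) and 1 was lower (16.7%, against 29.9%). KIF7, which organises the cilium tip for Hedgehog signalling, had 8.24, 8.01 and 8.22 CPM in shCtrl and 15.8, 13.5 and 13.6 CPM in shRBM39 (log2 fold change 0.81 ± 0.09, adjusted p = 8.81e-10). KIF24, a depolymerase that holds back cilium formation, had 10.1, 11.1 and 10.1 CPM against 17.9, 16.4 and 15.6 CPM (0.67 ± 0.08, adjusted p = 9.61e-09). KIF6, a motor of motile cilia, had 4.61, 5.04 and 4.23 CPM against 7.197, 6.45 and 6.51 CPM (0.54 ± 0.12, adjusted p = 0.000221).

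These calls differed in how far they depended on the scale. The KIF6 call was lost on the log2(RPKM + 1) scale (adjusted p = 0.0996) and on the log2(RPKM + 0.1) scale (adjusted p = 0.175), while KIF7 and KIF24 kept theirs. KIF7 shares 11.8% of its exon bases with TICRR on the opposite strand. KIF19, which sets cilium length, rose by 0.41 (adjusted p = 1.72e-05). KIF27, the closest relative of KIF7, went the other way and fell by 0.29 (adjusted p = 0.00838), a call lost without shCtrl replicate 2 (adjusted p = 0.0506) and with DESeq2 (adjusted p = 0.0962). Of the exon bases of KIF27, 13.1% are shared with RP11-575L7.2 and RP11-575L7.4 on the opposite strand. KIF9, with 17.9% of its exon bases shared with KIF9-AS1 and KLHL18, did not pass the test (-0.09, adjusted p = 0.326), and was lower with library totals alone (-0.22, adjusted p = 0.0222).

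Of the remaining members, the close relatives KIF21A and KIF21B, which slow microtubule growth, both fell. KIF21B had 81.8, 83.8 and 78.2 CPM in shCtrl and 33.5, 39.6 and 34.5 CPM in shRBM39, a 2.27-fold lower level (log2 fold change -1.18 ± 0.05, adjusted p = 7.43e-20). KIF21A had 89.8, 89.8 and 89.4 CPM and then 61.6, 59.9 and 63.8 CPM (-0.54 ± 0.04, adjusted p = 5.32e-13). Both genes were cleanly separated between the groups.

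KIF26A and KIF26B, relatives that act in signalling and cell shape, moved in opposite directions. KIF26A rose from 4.27, 4.57 and 5.02 CPM to 10.1, 10.1 and 10.2 CPM (log2 fold change 1.13 ± 0.11, adjusted p = 2.94e-11). KIF26B fell from 13.7, 12.2 and 11.2 CPM to 5.61, 5.75 and 5.21 CPM (-1.16 ± 0.10, adjusted p = 6.19e-12). Neither pair of groups overlapped. KIF12 was just outside the threshold (-0.31, adjusted p = 0.05001), and passed it with library totals alone, upper-quartile scaling, the correction for GC content and length, at least 10 counts in every library, or without shCtrl replicate 3 (-0.39, adjusted p = 0.0207).

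The genes that fell were longer than those that rose, with a median merged exon length of 9600 against 5640 bases, and 3901 bases over all tested genes. Median GC content was 45.7% for those that fell, 49.5% for those that rose and 49.3% over all tested genes. A correction of each library for its trend with GC content and length gave 20 higher and 11 lower members.

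Partners of the spindle kinesins moved mostly upward. Of 20 listed genes, 16 rose (80%, against 29.2% of all tested genes) and 2 fell (10%, against 29.9%), with a median log2 fold change of 0.49. The largest changes were in BIRC5 (1.19 ± 0.04), the survivin subunit of the chromosomal passenger complex that KIF20A carries, AURKA (0.91 ± 0.05), the spindle pole kinase, and PRC1 (0.77 ± 0.04), the microtubule bundler that works with KIF4A. The 2 that fell, singled out after their values were seen, were CENPE and NUMA1. CENPE, the kinetochore kinesin, had 29.4, 22.7 and 29.5 CPM in shCtrl and 24.3, 21.1 and 21.5 CPM in shRBM39 (-0.28 ± 0.08, adjusted p = 0.00210). Its groups overlapped, and the call was lost with limma on the log2(RPKM + 1) and log2(RPKM + 0.1) scales (adjusted p = 0.0643 and 0.0560). NUMA1, which anchors spindle poles, fell by 0.09 (adjusted p = 0.0314), and the sign turned once counts were corrected for GC content and gene length (0.07, adjusted p = 0.0727). Its call was also lost without a filter on low counts (adjusted p = 0.0839) and without shCtrl replicate 2 (0.0716), shCtrl replicate 3 (0.118), shRBM39 replicate 2 (0.0553) or shRBM39 replicate 3 (0.167).

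Cargo adaptors and light chains of the transport kinesins moved in both directions. Of the 18 found in the table and tested, 4 rose (22.2%, against 29.2% of all tested genes) and 9 fell (50%, against 29.9%), with a median of -0.13. MAPK8IP3, a scaffold between kinesin and its cargo, fell by 0.81 on the log2 scale (SE 0.04, 90.0 ± 2.21 to 51.4 ± 1.74 CPM). MAPK8IP2, a scaffold at under 2 CPM, rose by 1.47 (SE 0.32), a call lost with limma on the log2(RPKM + 1) and log2(RPKM + 0.1) scales (adjusted p = 0.0507 and 0.0667). The symbol KIF1BP was present, and the other names of that gene, KIFBP and KIAA1279, were not in the table.

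The dynein and dynactin list held genes of the opposing motor and its activator. It also held the regulators and adaptors PAFAH1B1, NDE1, NDEL1, BICD1, BICD2, HOOK1, HOOK2 and HOOK3. Of its 27 tested genes, 14 rose (51.9%, against 29.2% of all tested genes) and 6 fell (22.2%, against 29.9%), with a median of 0.12. NDEL1 and BICD2 were among those that rose, and NDE1, BICD1, HOOK1 and HOOK2 among those that fell. The largest changes were modest. ACTR1B fell by 0.56 (SE 0.08), DYNLL1 rose by 0.52 (SE 0.04) and DYNC1LI1 by 0.52 (SE 0.05). The tubulin list held alpha- and beta-tubulins, the subunits of the track, and also TUBG1, TUBG2, TUBD1 and TUBE1, which are not. Of its 18 tested genes, 13 rose (72.2%) and 4 fell (22.2%), where 29.2% and 29.9% of all tested genes did. TUBG1 and TUBD1 were among those that rose, and TUBG2 and TUBE1 among those that fell. The summed level of the list was 700 ± 22.8 RPKM in shCtrl and 1150.5 ± 14.2 RPKM in shRBM39. TUBB3 (1.15 ± 0.05), TUBB4B (1.11 ± 0.04) and TUBB (0.96 ± 0.04), all beta-tubulins, changed most.

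The deposited splicing table held 1582 records from 1198 genes, and 5 of the records belonged to 5 kinesin genes. It lists only events that the authors had selected for a difference between groups and names these only as group 1 and group 2, so the levels are described with no test and no direction relative to the knockdown. The inclusion level is the share of transcripts that hold the exon, from reads that include or skip it. With 3 libraries per group an exact permutation test cannot go below 0.1 in any case. Groups that do not overlap in a record are no separate result, since records were selected for a difference. The share of such records over the whole of the 1582 was not counted.

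KIF4A was the only kinesin with at least 20 reads behind its record in every library, from 79 to 136. The record is the skipping of coding exon 27 of 31, which is 96 bases long and keeps the reading frame. Group 1 included the exon at levels of 0.719, 0.731 and 0.850, and group 2 at 0.957, 0.859 and 0.879. The groups did not overlap, but the highest value of group 1 lay only just under the lowest of group 2. In pooled reads, 58 of 386 (15.0%, Wilson 95% interval 11.8 to 18.9%) skipped the exon in group 1 and 15 of 242 (6.20%, 3.79 to 9.97%) in group 2. Such intervals cover counting error only.

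KIF20B, described after its values were seen because it had fewer reads, lost coding exon 12 of 33. The exon is 163 bases long, so skipping shifts the reading frame, and in the canonical transcript translation then stops after codon 430 in place of 1820, at a point 3929 bases before the last exon junction. Group 1 libraries had levels of 0.584, 0.773 and 0.678 and all 3 libraries of group 2 had 1, from 16 to 33 reads each. Skipping reads were 13 of 74 (17.6%, 10.6 to 27.8%) in group 1 and 0 of 71 in group 2, for which a limit of 3 reads allows a share of up to 4.23% and the Wilson interval one of up to 5.13%. The groups did not overlap.

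The exons of both records and the short exon of KIF21A are printed from the hg38 genome on the strand of the gene, with the exon in capitals and 20 bases of each flanking intron in lower case. They show the AG and GT that frame each exon and the lengths that set the reading frame.
KIF4A, chrX:70406259-70406354, plus strand: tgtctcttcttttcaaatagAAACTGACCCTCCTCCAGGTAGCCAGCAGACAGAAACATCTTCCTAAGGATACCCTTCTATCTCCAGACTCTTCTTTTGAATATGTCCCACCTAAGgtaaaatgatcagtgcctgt
KIF20B, chr10:89718710-89718872, plus strand: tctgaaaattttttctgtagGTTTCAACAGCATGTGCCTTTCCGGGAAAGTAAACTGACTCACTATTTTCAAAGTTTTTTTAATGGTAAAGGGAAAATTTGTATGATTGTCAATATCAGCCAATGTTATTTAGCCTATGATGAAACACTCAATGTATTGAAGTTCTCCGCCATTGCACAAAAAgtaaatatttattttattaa
KIF21A, chr12:39330242-39330262, minus strand: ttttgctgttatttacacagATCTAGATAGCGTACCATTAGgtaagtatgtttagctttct

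The other records rested on few reads and their groups overlapped. KIF21A included this 21-base exon, number 24 of 38, at 0.392, 0.147 and 0.430 in group 1 and 0.0831, 0.0920 and 0.177 in group 2, from 6 to 30 reads. KIF21B had a record for a 39-base exon, number 28 of 35, from 2 to 5 reads, and KIF24 had a pair of mutually exclusive exons with 5 to 13 reads. Both KIF21 genes and KIF24 were also among the members whose total RNA changed by at least 0.5 on the log2 scale, as was KIF4A.

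**Figure D5:**
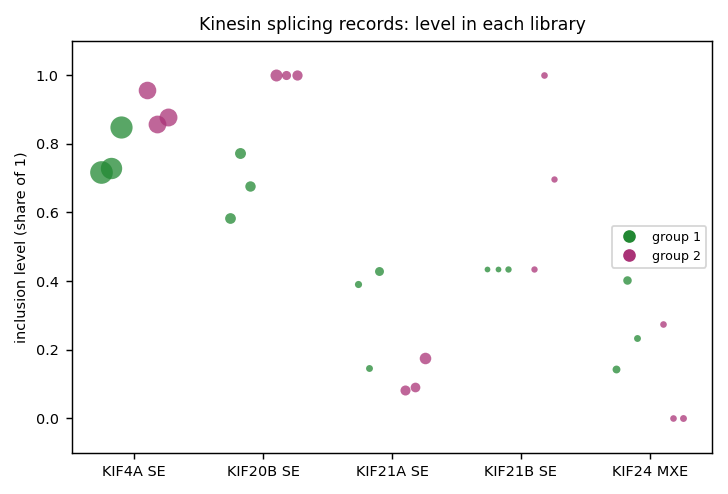
Inclusion level in each library (y axis, from 0 to 1) for the 5 kinesin splicing records, green for group 1 and purple for group 2, with the area of a point growing with its reads. KIF4A has the largest points, and KIF4A and KIF20B are the records in which the groups do not overlap (SE is a skipped exon, MXE a pair of mutually exclusive exons). All 5 had been selected for a difference between groups.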

How the data were processed

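Raw counts for each gene symbol and RPKM values were deposited by the authors, the latter recomputed here from the counts and library totals. The submitters' processing notes name Trimmomatic 0.36, STAR 2.5.3a, featureCounts of Subread 1.5.1, edgeR 3.12.1 and GRCh38. Strand setting and collapsing of unique identifiers are not given in the sources used here. The authors' rMATS table, with deposited inclusion fractions and read counts, also holds p-values, FDR and group differences, which were not used, nor was a tally of events.

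The test was edgeR's quasi-likelihood fit on group (version 4.0.16, R 4.3.3), after filterByExpr and TMM, with Benjamini-Hochberg adjustment at 0.05. Replicates differed by more than sampling noise (chi-square over its degrees of freedom 2.11 to 4.21). On simulated counts it recovered 88% of 200 genes changed by 1 on the log2 scale and called 0.0731% of the unchanged among 17982. The simulation held far fewer changed genes than the data and no smaller changes, so it does not give the rates for these data. Alternatives were DESeq2 1.42.0, limma 3.58.1 on log2(RPKM + 1) and log2(RPKM + 0.1), other scalings and filters (at least 10 counts in every library), a test against 0.5, an adjusted p under 0.01, a correction for GC content and length with splines of 5 degrees of freedom, a replicate block and each library left out. Merged exon lengths, overlaps and GC content came from the exons of the count table and hg38. Exon numbers and reading frames came from GENCODE v44.

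The members, roles and lists were chosen with earlier results of these data known. Library values were printed for members with an adjusted p under 0.05, a log2 fold change of at least 0.5 in size and a mean of at least 1 CPM, and for records with 20 reads in every library. Of each partner list, the 3 called genes with the largest changes were named, other than 1 that is not reported here.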

Additional observations from a re-analysis of the deposited data

How the results depend on the processing

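The replicate numbers did not pair the libraries, with correlations of same-numbered deviations of 0.01, -0.03 and 0.00, and the fit with the replicate block changed the call of 0 of the 38 members (30 called, 10810 genes in all). Leaving out 1 library gave 26 to 31 called members, 18 to 20 higher and 8 to 11 lower, with 9 to 11 cell division and 17 to 20 interphase kinesins. In every alternative except a test that asks for more than 0.5 on the log2 scale, the call was the same for 24 of 38 members, and for 17 of the 18 with changes of at least 0.5, KIF6 being the exception. Tested against 0.5, 2232 genes were called, with 14 members (10 higher, 4 lower), 6 cell division and 8 interphase kinesins. The same test called 8 spindle partners, 2 transport partners and 10 genes of the tubulin list. In the dynein and dynactin list it called 0 (edgeR, also 0 at an unadjusted p under 0.05). These counts are lower because this test asks for a larger change. DESeq2, tested against 0, called 17 genes of the dynein and dynactin list and limma 16. Log2 fold changes of low genes shrank on the log2(RPKM + 1) scale, to 0.36 for KIF1A, 0.51 for KIF26A, -0.47 for KIF26B, 0.47 for KIF7, 0.37 for KIF24 and 0.21 for KIF19, and on the log2(RPKM + 0.1) scale to 1.51 for KIF1A. The pseudocount of 1 exceeds the mean shCtrl RPKM of KIF1A, KIF26A and KIF26B and lies below that of KIF7, KIF24 and KIF19. Both RPKM scales also rest on library totals. Library totals alone, with no pseudocount, gave 0.29 for KIF19, where the main fit gave 0.41. The part of each in the smaller values was not tested.

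Signs turned for 5 members that were not called and for NUMA1. With library totals alone the log2 fold change was -0.0766 for KIF17, -0.00559 for KIF14, -0.00362 for KIF18A and -0.107 for KIF13A. On the log2(RPKM + 1) and log2(RPKM + 0.1) scales it was -0.00613 and -0.0234 for KIF17, -0.00635 and -0.00788 for KIF14, -0.00104 and -0.000777 for KIF18A, and -0.0740 and -0.106 for KIF13A. Leaving out 1 library gave -0.226 to 0.296 for KIF17 and -0.0438 to 0.0697 for KIF13A, which was -0.0156 with upper-quartile scaling. Corrected for GC content and length, KIF3C was at 0.0212 and NUMA1 at 0.0673. The cause was not tested. Of the 5 kinesin splicing records, 1 had at least 20 reads in every library. KIF17 had 6 to 14 counts a library, and 4 members had too few counts to be tested.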
